A study of Mus musculus with 8 samples.

Results

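The 10 genes described here, out of 21938 protein-coding genes, are genes of the T-cell lineage: Notch1, Tcf7, Gata3 and Bcl11b, which set up the T-cell programme, Cd3e and Cd3d of the T-cell receptor complex, the coreceptors Cd4 and Cd8a, and the surface molecules Cd69 and Thy1. They were listed by name, as genes that pro-B cells are held to keep silent, and the rule uses no measured value. For each gene, the peaks of 5-hydroxymethylcytosine (5-hmC) were counted in a window made of the gene body and 5 kb on each side, and set beside the windows of other protein-coding genes of like length (within 25%). Peak lists hold no expression values, so that neither the silence of these genes nor the identity of the sorted cells could be checked here.

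The 4 libraries came from pro-B cells (B220+CD43+IgM-) sorted from the bone marrow of C57BL/6 mice aged between 4 and 6 weeks. In the 2 HDAC7-deficient libraries the mice were Hdac7 fl/- and carried the mb1-Cre knock-in, which places Cre in the Cd79a gene, active in B-lineage cells. The 2 libraries labelled wild-type were, by the study's methods, from Hdac7+/- littermates, so that mice of both genotypes carry 1 inactive copy of Hdac7. The methods do not state whether these littermates also carried mb1-Cre. The labels do not say whether the 2 libraries of a genotype came from separate animals, so the spread between them may be technical. In hMeDIP-seq, sheared DNA is pulled down with an antibody against 5-hmC and sequenced, and a peak is a stretch where the signal of 1 library passes a fixed height. The lists give the start and end of each peak with no height or read count, and the depth behind them is unknown. They held between 1305200 and 1414862 peaks.

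5-hmC is the base that TET enzymes make when they oxidise 5-methylcytosine, mostly at CpG dinucleotides. In the thymus, signals through the Notch1 receptor switch on the transcription factors TCF-1 (made from Tcf7) and GATA3, and Bcl11b then closes off other fates, after which the genes of the T-cell receptor complex and its coreceptors are expressed. B-cell progenitors in the bone marrow take another course under EBF1 and PAX5, and HDAC7, a class IIa histone deacetylase, is known as a repressor of genes of other lineages in these cells.

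Of the regions with a peak in all 4 libraries, the following 3 were the widest ones in the windows of Tcf7, Bcl11b and Cd69, and they are shown because they are the widest of the 10 loci that touch no exon. Each line gives the central 300 bp on the plus strand of GRCm38, with every CpG in capitals.
Tcf7 intron, chr11:52277264-52277563: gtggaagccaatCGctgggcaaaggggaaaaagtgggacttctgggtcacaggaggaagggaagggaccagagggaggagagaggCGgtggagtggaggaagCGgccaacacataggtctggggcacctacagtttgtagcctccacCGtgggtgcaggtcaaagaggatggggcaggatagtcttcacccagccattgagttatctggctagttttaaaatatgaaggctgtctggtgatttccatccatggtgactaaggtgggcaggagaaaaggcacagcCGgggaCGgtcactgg
Bcl11b intron, chr12:107945508-107945807: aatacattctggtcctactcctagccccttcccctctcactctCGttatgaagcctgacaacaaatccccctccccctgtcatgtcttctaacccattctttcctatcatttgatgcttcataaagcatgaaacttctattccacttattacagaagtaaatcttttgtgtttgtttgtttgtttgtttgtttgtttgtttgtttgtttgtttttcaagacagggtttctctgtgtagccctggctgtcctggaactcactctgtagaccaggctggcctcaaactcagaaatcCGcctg
Cd69 upstream, chr6:129276025-129276324: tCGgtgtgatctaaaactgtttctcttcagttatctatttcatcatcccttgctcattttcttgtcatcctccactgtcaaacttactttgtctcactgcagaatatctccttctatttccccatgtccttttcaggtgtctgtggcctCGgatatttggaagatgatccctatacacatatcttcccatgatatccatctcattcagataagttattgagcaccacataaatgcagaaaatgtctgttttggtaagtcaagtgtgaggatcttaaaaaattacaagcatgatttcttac
The Tcf7 sequence held 6 CpGs, and those of Bcl11b and Cd69 held 2 each. Over all 324090 regions with a peak in every library, the median was 2 CpGs per 300-bp sequence (5th to 95th percentile 0 to 7), and 80.3% held a CpG. In the Bcl11b region 49.1% of the bases were soft-masked as repeats, against 21.0% in the Tcf7 region and 4.57% in the Cd69 region. The sequences were searched on both strands for short core motifs of factors of T-cell development, TGTGGT for RUNX, AGATAA for GATA and CTTTGA for TCF/LEF. The Cd69 sequence held 1 RUNX and 2 GATA matches and the Tcf7 sequence 1 GATA and 1 TCF/LEF match, while the letters of all of these motifs were absent from the Bcl11b sequence. Such matches were common, being found in 18.5% (RUNX), 18.3% (GATA) and 18.9% (TCF/LEF) of the sequences of all regions shared by the 4 libraries.

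Every one of the 10 genes carried 5-hmC peaks in every library, from 4 peaks (Thy1 in HDAC7-deficient replicate 2) to 64 (Bcl11b in HDAC7-deficient replicate 1). Tcf7 and Cd4 stood highest for their length, with 17.0% ± 1.45 and 16.7% ± 2.75 of the window under peaks (mean ± SD over 4 libraries). They ranked at the 97.1st and 95.4th percentile of genes of like length, and the other 8 genes lay between the 27.2nd (Cd8a) and the 66.2nd (Thy1). By mean coverage the order was Tcf7, Cd4, Thy1, Cd3e, Cd69, Gata3, Bcl11b, Cd3d, Notch1 and Cd8a. Each gene differed from the next in this order by less than the larger of their SDs. Taken library by library, Tcf7 ranked between the 86.9th and the 98.3rd percentile and Cd4 between the 89.1st and the 97.9th.

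**Figure D1:**
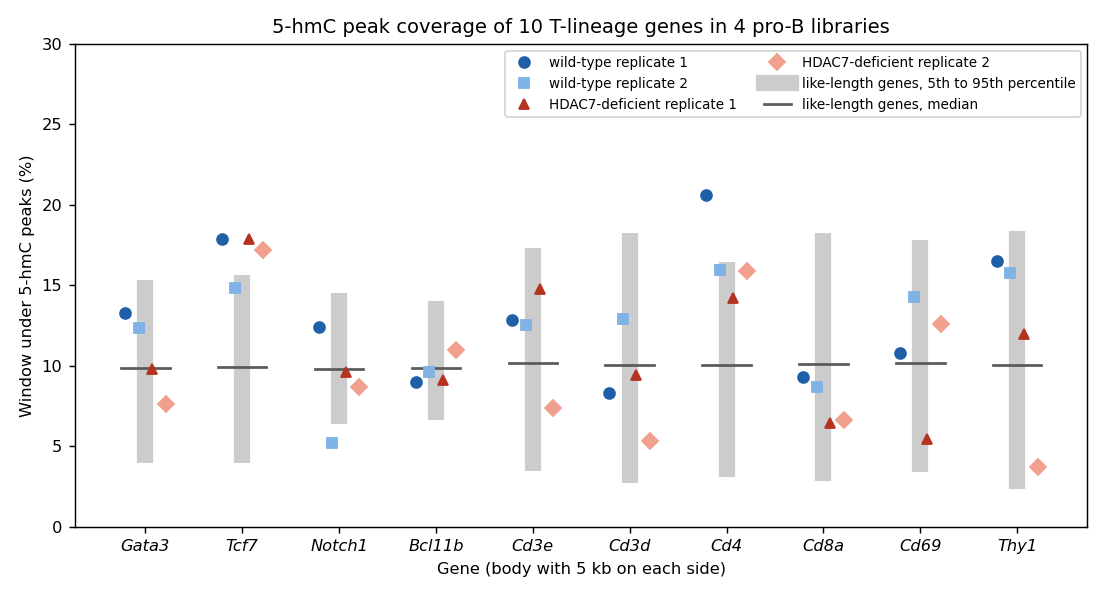
Percent of each gene window under 5-hmC peaks (vertical axis) for the 10 genes (horizontal axis) in 2 wild-type and 2 HDAC7-deficient libraries, 1 point per library. Grey bars run from the 5th to the 95th percentile of the mean coverage of protein-coding genes of like length, with a line at their median. Tcf7 and Cd4 sit near or above the top of their bars in all 4 libraries, and Thy1 ranges from 3.70% to 16.5%.

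Libraries differed more for some of these genes than for others. HDAC7-deficient replicate 2 stood apart over the genome as a whole, with 6.31% of its peaks on chromosome X, against 3.47% to 4.41% in the other libraries, and 70.2% on chromosomes 1 to 13, against 73.5% to 74.3%. The 10 genes lie on chromosomes 2, 6, 9, 11 and 12, where the ratio of peak counts between the genotypes was 0.997 to 1.01 per chromosome and that of peak bases 0.955 to 0.972. In that library 4 of the 10 genes were above the median of their like-length genes, against 7 in each wild-type library and 8 in HDAC7-deficient replicate 1.

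Notch1, the receptor that starts the T-cell programme, spans 58761 bp on chromosome 2 (26457903 to 26516663, minus strand). Counted by library, always with replicate 1 before replicate 2, the wild-type pair held 56 and 31 peaks and the HDAC7-deficient pair 47 and 41. Peaks covered 12.4% and 5.18% of its window in the wild-type pair and 9.64% and 8.69% in the other. Both HDAC7-deficient values fell between the wild-type ones, and the rank among like-length genes ran from the 2.62nd percentile in wild-type replicate 2 to the 83.4th in wild-type replicate 1. Without wild-type replicate 1 the ratio of coverage between the genotypes moved from 1.04 to 1.77. The widest region with a peak in every library (chr2:26459557-26460157) touched an exon 56806 bp from the gene start, near the 3′ end.

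Tcf7, which encodes TCF-1, an early target of Notch signals, spans 30644 bp on chromosome 11 (52252371 to 52283014, minus strand). Its peak counts were 32 and 19 in the wild-type libraries, against 39 and 32 in the HDAC7-deficient ones. Coverage was 17.9% and 14.8% in the wild-type libraries, against 17.9% and 17.2% in the HDAC7-deficient ones, and the genotypes overlapped. The ratio of coverage was 1.07 ± 0.145 (SD propagated from the replicates). Introns carried most of it, with 18.8% of their bases under peaks on average, and the 922-bp region whose centre is printed above, 5600 bp into the gene, held 588 and 922 peak bases in the wild-type libraries, against 487 and 649 in the HDAC7-deficient ones. The window also holds parts of the lincRNA Gm26551 and the antisense transcript A630014C17Rik. Peaks carry no strand and cannot be given to either gene.

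Gata3, the zinc-finger factor of early thymocytes and of T helper 2 cells, spans 32957 bp on chromosome 2 (9857078 to 9890034, minus strand). It had 30 and 36 peaks in the wild-type libraries, against 33 and 20 in the HDAC7-deficient ones. Coverage was 13.3% and 12.4% in the wild-type libraries, against 9.78% and 7.64% in the HDAC7-deficient ones, so that the genotypes did not overlap in coverage, while they did in peak count. The ratio of coverage was 0.679 ± 0.123 (two-sided exact permutation test, p = 0.33, the smallest value that 2 against 2 libraries allow). The exons were rich in peaks, with 31.5% and 26.5% of their bases covered in the wild-type libraries, against 28.2% and 17.1% in the HDAC7-deficient ones, beside 8.41% on average over the exons of all protein-coding genes. One exonic region of 556 bp (chr2:9874511-9875066) was marked in every library and held 32 CpGs. Its peak bases were 436 and 324 in the wild-type libraries, against 447 and 183 in the HDAC7-deficient ones. The Gata3 window also holds the protein-coding genes 9230102O04Rik (6500 bp) and 4930412O13Rik (2670 bp) and the antisense transcript Gm13256 (1614 bp). Peaks that lie in them cannot be given to Gata3 alone.

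Bcl11b, which seals T-cell commitment, is the longest of the genes at 93200 bp (chromosome 12, 107910403 to 108003602, minus strand), and its coverage had the smallest SD over the 4 libraries (0.926 percentage points). It held 59 and 63 peaks in the wild-type libraries, against 64 and 55 in the HDAC7-deficient ones. Coverage was 8.999% and 9.62% in the wild-type libraries, against 9.11% and 11.0% in the HDAC7-deficient ones, close to the like-length median of 9.86%. With 22.1 CpGs per kb, its window stood at the 99.9th percentile of like-length genes for CpG density. Gata3 stood at the 97.9th, Notch1 at the 87.0th and Tcf7 at the 84.3rd, whereas Cd69 (4.86 CpGs per kb) was at the 17.2nd. CpG density and peak coverage thus ranked the genes differently, since Bcl11b was at the 46.9th percentile and Cd69 at the 56.3rd for coverage.

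Cd3e and Cd3d encode signalling chains of the T-cell receptor complex and lie close together on chromosome 9 (Cd3e at 44998740 to 45009627, minus strand, and Cd3d at 44981786 to 44987339, plus strand). Their windows are 1400 bp apart and share no bases. Cd3e had 16 and 10 peaks in the wild-type libraries, against 21 and 8 in the HDAC7-deficient ones, with coverage of 12.9% and 12.5% against 14.8% and 7.38%. Cd3d had 5 and 12 peaks in the wild-type libraries, against 10 and 8 in the HDAC7-deficient ones, with coverage of 8.29% and 12.9% against 9.44% and 5.32%. In both genes the HDAC7-deficient replicates differed from each other by more than the genotype means did, in coverage. The first 3646 bp of the Cd3d window belong to Cd3g, another chain of the complex. The widest Cd3d region with a peak in every library (chr9:44978252-44978915) lies there, with 640 and 570 peak bases in the wild-type libraries, against 107 and 50 in the HDAC7-deficient ones.

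Cd4, the coreceptor of helper T cells, spans 23530 bp on chromosome 6 (124864692 to 124888221, minus strand). Its peak counts were 41 and 20 in the wild-type libraries, against 29 and 34 in the HDAC7-deficient ones. Coverage was 20.6% and 15.98% in the wild-type libraries, against 14.2% and 15.9% in the HDAC7-deficient ones. The genotypes were thus apart in coverage but replicate 2 of each nearly met, and the ratio was 0.823 ± 0.161 (two-sided exact permutation test, p = 0.33). Without wild-type replicate 1 the ratio of peak counts moved from 1.03 to 1.57, with the lone remaining wild-type library below both others. The downstream side holds 4292 bp of Gpr162, and the widest region in all libraries (chr6:124859992-124860750) overlaps an exon of that gene.

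Cd8a, the alpha chain of the coreceptor of cytotoxic T cells, spans 5747 bp on chromosome 6 (71373427 to 71379173, plus strand). Of the 10 genes, it alone had lower values in both HDAC7-deficient libraries by both measures. Peak counts were 11 and 10 in the wild-type libraries, against 8 and 8 in the HDAC7-deficient ones, a ratio of 0.762 ± 0.051. Coverage was 9.31% and 8.67% in the wild-type libraries, against 6.43% and 6.61% in the HDAC7-deficient ones, a ratio of 0.726 ± 0.039 (two-sided exact permutation test, p = 0.33 for each measure). With 2 kb in place of 5 kb on each side the ratio of peak counts was 1.18, the opposite direction, and that of coverage was 0.852.

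Cd69, an early activation marker of lymphocytes, spans 8112 bp on chromosome 6 (129267325 to 129275436, minus strand). Its peak counts were 11 and 13 in the wild-type libraries, against 7 and 9 in the HDAC7-deficient ones, which did not overlap (ratio 0.667 ± 0.142, two-sided exact permutation test, p = 0.33). Coverage was 10.8% and 14.3% in the wild-type libraries, against 5.45% and 12.6% in the HDAC7-deficient ones, and the genotypes overlapped. The ratio of coverage, 0.721 ± 0.428, was 1.01 without HDAC7-deficient replicate 1 and 0.435 without HDAC7-deficient replicate 2. In the 4000 bp beyond the promoter, 356 and 531 bases were under peaks in the wild-type libraries and 0 in both HDAC7-deficient libraries. The peaks of the 2 wild-type libraries did not overlap each other there. The difference was not tested, and the share of all genes with such a difference was not counted. The promoter region printed above kept a peak in all libraries, with 296 and 377 peak bases in the wild-type libraries, against 94 and 326 in the HDAC7-deficient ones.

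Thy1, a surface glycoprotein of thymocytes and T cells, spans 5196 bp on chromosome 9 (44043384 to 44048579, plus strand), and its coverage had the largest SD over the 4 libraries (5.86 percentage points). Peak counts were 21 and 11 in the wild-type libraries, against 17 and 4 in the HDAC7-deficient ones. Coverage was 16.5% and 15.8% in the wild-type libraries, against 11.98% and 3.70% in the HDAC7-deficient ones, a ratio of 0.486 ± 0.363 (two-sided exact permutation test, p = 0.33). This ratio was 0.743 without HDAC7-deficient replicate 2 and 0.230 without HDAC7-deficient replicate 1. By peak count, HDAC7-deficient replicate 1 lay within the wild-type range.

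Over the 10 genes, coverage was lower on average in the HDAC7-deficient libraries in 7 and higher in 3, and peak counts were lower in 5 and higher in 5. Among all protein-coding genes, mean coverage was lower in 55.3% and peak count in 44.9%. Both HDAC7-deficient libraries lay below both wild-type libraries in coverage for 4 of the 10 genes (Gata3, Cd4, Cd8a and Thy1), beside 16.9% of all protein-coding genes, and above them for 0 of 10, beside 9.96%. By peak count, 2 of 10 genes (Cd8a and Cd69) were below, beside 10.8%, and 0 were above, beside 11.9%. These counts are of few genes and moved with the window. Summed over the 374589 bp of the 10 windows, peaks numbered 282 and 225 for wild-type and 275 and 219 for HDAC7-deficient libraries, a ratio of 0.974 ± 0.220, and 47593 and 41158 peak bases against 40641 and 39194, a ratio of 0.900 ± 0.095. For comparison, the ratio of peak counts on chromosomes 1 to 13 was 1.01 ± 0.083. The ratio of peak bases was 0.955 to 0.972 on the chromosomes that hold the 10 genes.

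A linear model across genes (limma, on log2 of the scaled peak count plus 1) called 0 of 21451 tested genes at an adjusted p of 0.05, and 0% in either direction. Unadjusted, 801 genes had a p under 0.05, of which 374 were higher and 427 lower in HDAC7-deficient libraries, and 0 of the 10 genes were among them. A fit whose spread follows the level (limma-trend) also called 0, with 644 genes at an unadjusted p under 0.05. Counts of these genes were also simulated with only the spread of random counting (Poisson), and changes were planted in genes averaging at least 10 peaks. The first fit recovered 0 of 100 planted 2-fold and 0 of 100 planted 4-fold changes, so it could not find differences of that size here. Limma-trend recovered 32 and 95. The spread between real replicates was not simulated, so these shares may be too high for the data. The largest log2 fold changes among the 10 genes were those of Thy1 (−0.79 ± 0.62, SE), Cd69 (−0.55 ± 0.25) and Tcf7 (0.49 ± 0.32), each with an adjusted p of 0.9996 in the limma fit. The value of Thy1 was 0.09 without HDAC7-deficient replicate 2 and −1.68 without HDAC7-deficient replicate 1, and −0.32 and −1.27 without wild-type replicates 1 and 2. That of Tcf7 was 0.89 and 0.08 without those wild-type libraries and 0.05 with peaks at least 200 bp wide. For coverage, limma-trend gave Thy1 a log2 change of −1.13 ± 0.41 with an unadjusted p of 0.0224 and an adjusted p of 1.00, with 0 genes called and 720 at an unadjusted p under 0.05.

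**Figure D2:**
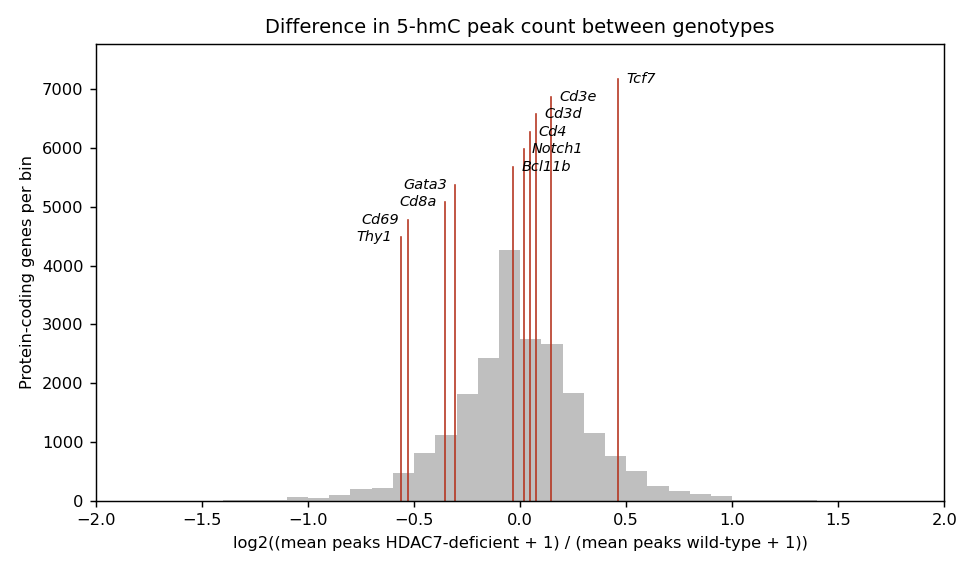
Number of protein-coding genes (vertical axis) by the log2 ratio of mean peak counts, HDAC7-deficient over wild-type with 1 peak added to each (horizontal axis, bins of equal width), with a red line for each of the 10 T-lineage genes. The line heights carry no value. The genes spread on both sides of 0, from −0.56 (Thy1) to 0.46 (Tcf7), and the 5th and 95th percentile of all genes are −0.51 and 0.51.

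Along the genes, the peaks of the 10 loci lay mainly in introns, which held 61.0% of them by midpoint and 59.4% of the window bases. The share of bases under peaks was 11.5% ± 0.890 in introns and 11.7% ± 1.63 in exons (SD over 4 libraries), beside 9.94% and 8.41% for all protein-coding genes. In gene lists described below, the shares in introns and exons were 11.7% and 12.2% for other T-lineage genes. They were 13.6% and 13.1% for B-lineage genes and 13.3% and 9.68% for myeloid genes. By gene, the exon share of the 10 ran from 1.55% (Cd8a) to 25.8% (Gata3). The upstream 4 kb beyond the promoter (10.4%), the promoter (the gene start with 1000 bp before and 100 bp after it) (9.96%) and the 5 kb downstream (10.5%) were near the values over all genes, which were 10.5%, 10.1% and 9.97%. Promoter coverage of the 10 genes ranged from 6.54% to 13.4% between libraries. Both HDAC7-deficient values (8.97% and 6.54%) were below both wild-type values (10.9% and 13.4%), over 11000 bp in all. Over all protein-coding genes the promoter values overlapped (9.85% and 11.0% in wild-type, 9.57% and 9.90% in HDAC7-deficient libraries). By gene, both HDAC7-deficient promoter values were lower at Cd4 and Thy1 and higher at Cd8a, and the genotypes were not separated at the others. Each of these promoters held between 0 and 4 peaks per library by midpoint. This was not tested, and the share of all single promoters that separate in the same way was not counted.

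**Figure D3:**
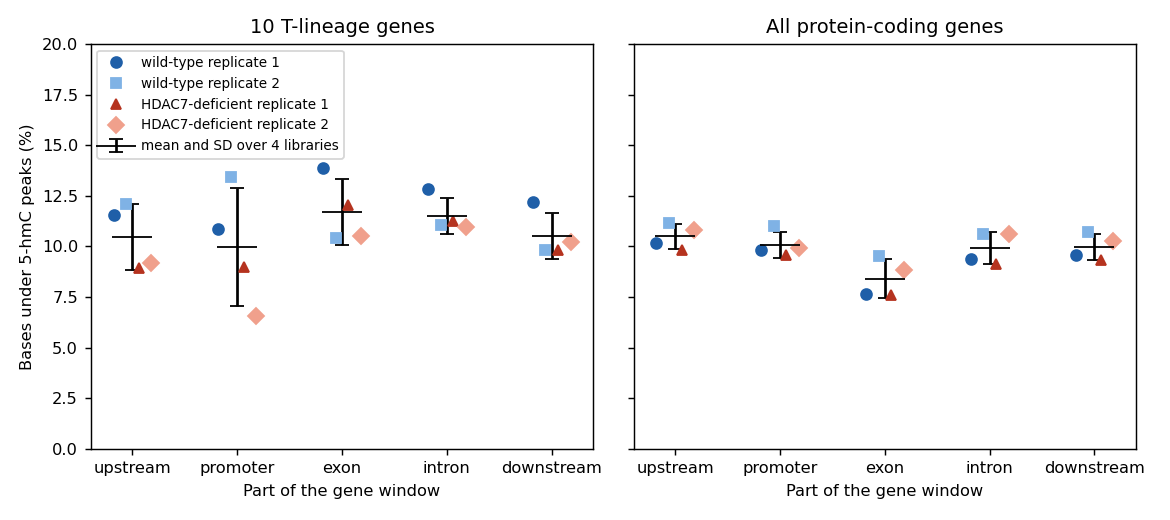
Percent of bases under 5-hmC peaks (vertical axis) in 5 parts of the gene window (horizontal axis), for the 10 T-lineage genes (left) and all protein-coding genes (right). Points are the 4 libraries, and bars give their mean and SD. Exons of the 10 genes averaged 11.7%, against 8.41% in all genes and 12.2% in the other T-lineage genes described below (not drawn). The promoters of the 10 genes ranged from 6.54% to 13.4%.

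At the promoters the genes fell into different patterns. Peaks touched the promoters of Cd8a and Cd69 in all 4 libraries, with 149 and 165 bases in wild-type against 178 and 294 in HDAC7-deficient libraries at Cd8a, and 218 and 377 against 94 and 326 at Cd69. The Cd3e and Cd3d promoters held no peak in any library. Those of Tcf7 and Bcl11b, the most CpG-rich of the 10 with an observed-to-expected CpG ratio of 0.886 and 0.780, were each touched in 1 library, by 151 bases in wild-type replicate 2 at Tcf7 and 50 bases in HDAC7-deficient replicate 1 at Bcl11b. Over all genes, 17.3% of promoters with a ratio of at least 0.6 and 22.4% of the others held no peak in any of the 4 libraries. The Cd4 promoter had peaks in the wild-type libraries alone (180 and 238 bases), and that of Thy1 in 3 libraries (352 and 413 in wild-type, 321 in HDAC7-deficient replicate 1).

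Gata3 had promoter peaks of 213 bases in wild-type replicate 1 and of 88 and 99 bases in the HDAC7-deficient libraries, and Notch1 of 85 and 134 bases in wild-type and 256 in HDAC7-deficient replicate 1. For these 2 genes the GENCODE gene start belongs to a long transcript. The RefSeq start lies 11434 bp further into Gata3 and 12841 bp into Notch1. At the RefSeq starts, the Gata3 promoter was touched by 33 bases in wild-type replicate 2 alone, and that of Notch1 by 255 bases in wild-type replicate 1 and 111 and 445 bases in the HDAC7-deficient libraries.

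**Figure D4:**
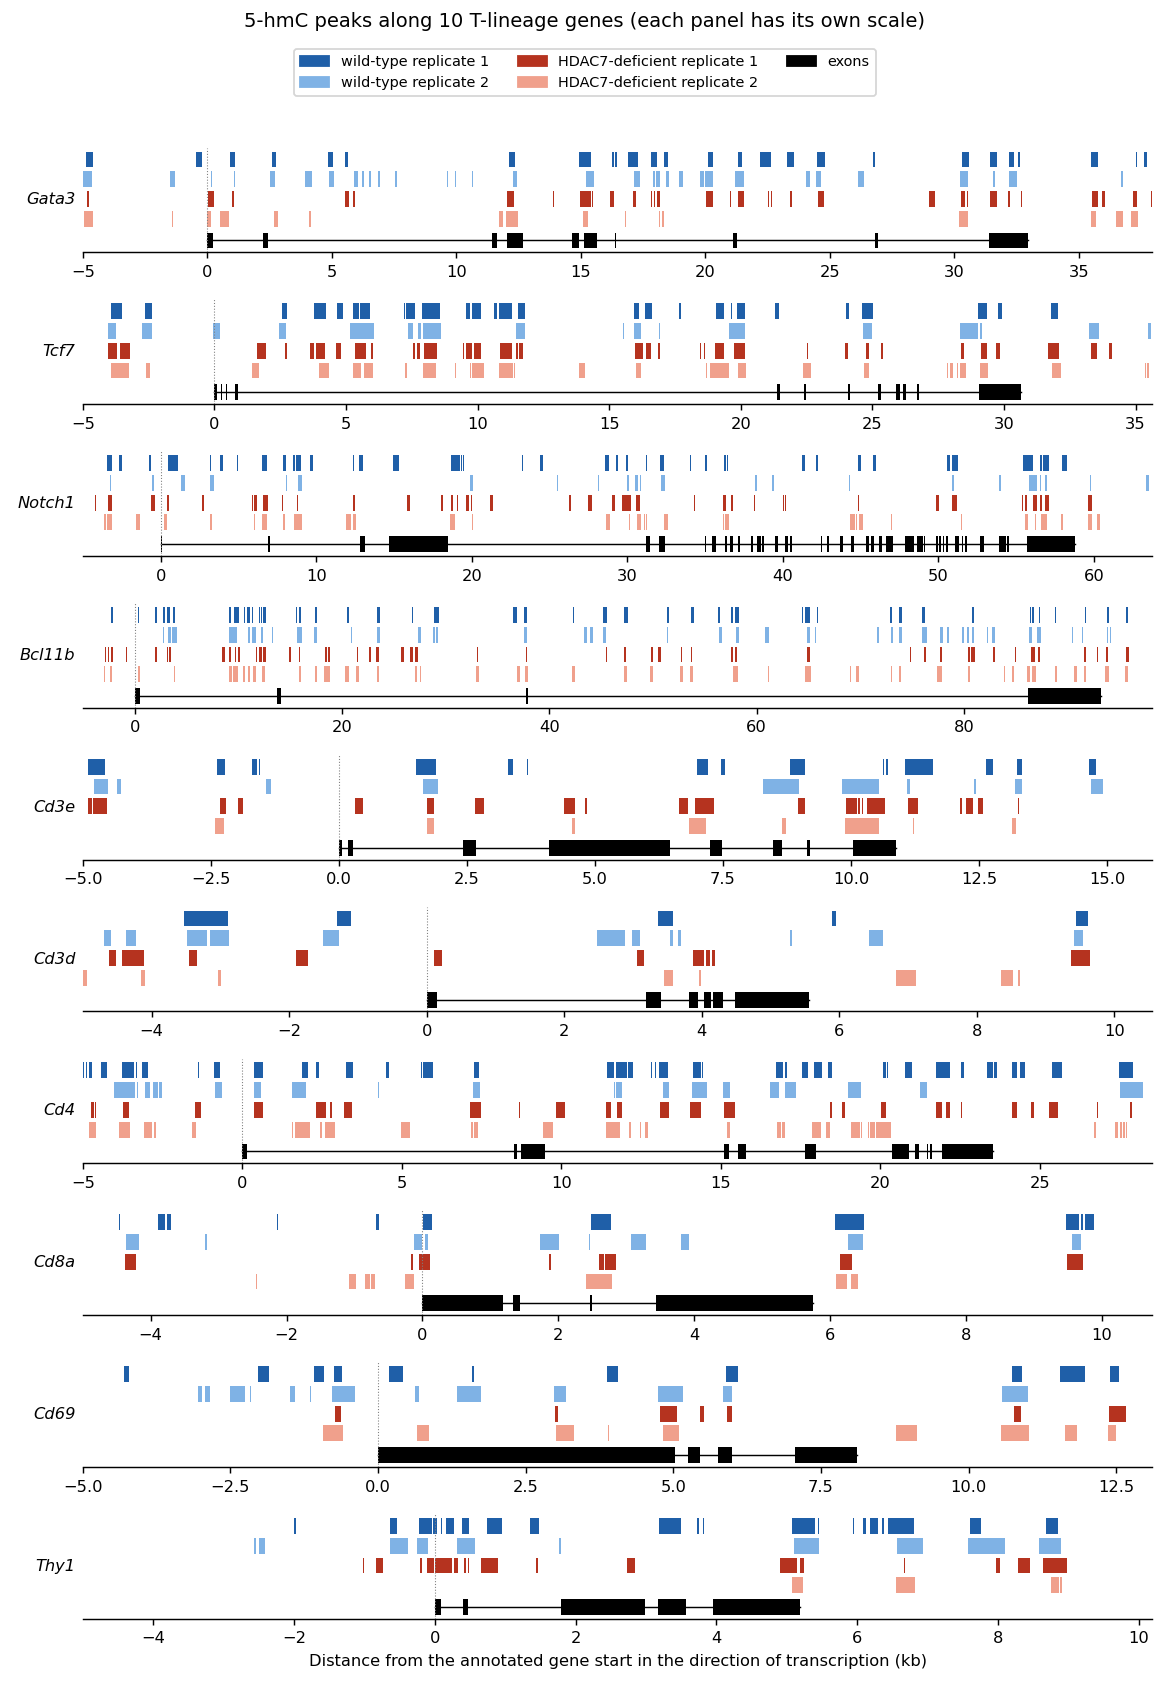
Position of every 5-hmC peak along the 10 genes, by distance in kb from the annotated gene start in the direction of transcription (horizontal axis, own scale per gene). Each coloured row is 1 library (wild-type replicates 1 and 2, then HDAC7-deficient replicates 1 and 2), and black boxes are exons. Peaks are spread along each window, and 57.7% of the regions made by merging overlapping peaks stand in 1 library alone. The row of HDAC7-deficient replicate 2 holds 4 peaks at Thy1.

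Merging peaks that overlapped by at least 1 bp gave 499 regions in the 10 windows. Of these, 50 (10.02%) were marked in every library, beside 12.5% of all 2587554 regions, and 288 (57.7%) in a single library, beside 52.7%. Each gene had at least 1 region marked in every library, from 1 at Cd3d to 14 at Bcl11b. In 13 of the 50 one library contributed under 50 bp, and in 28 every library contributed at least 100 bp. These included the widest regions of Tcf7, Bcl11b, Gata3, Notch1 and Thy1 (chr9:44048294-44048842, across the 3′ end). In the widest regions of the other 5 genes 1 library held between 11 bases (wild-type replicate 2 at Cd8a, chr6:71375829-71376279) and 94 bases (HDAC7-deficient replicate 1 at Cd69), among them Cd3e (chr9:44998961-44999794) with 17 bases in wild-type replicate 1. The 50 regions had a median of 14.7 CpGs per kb, beside 6.24 for the regions of this kind over the genome. The whole windows of the 10 genes had a median of 13.1 CpGs per kb, and those of all protein-coding genes 11.6. Regions of the 10 windows that were neither shared by all libraries nor gained nor lost had a median of 12.3.

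Regions found in both HDAC7-deficient libraries and absent from the wild-type ones, here called gained, numbered 16 of 499 (3.21%, beside 2.92% of all regions). Regions found in both wild-type libraries alone, here called lost, numbered 10 (2.004%, beside 2.41%). With only peaks at least 200 bp wide, lost regions numbered 15 of 209 (7.18%, beside 3.93% of all regions) and gained ones 6 (2.87%, beside 3.88%). With a required overlap of 50% of the region, 23 of 498 were lost (4.62%, beside 2.99%) and 12 gained (2.41%, beside 3.13%). Bcl11b held 10 of the 16 gained and 4 of the 10 lost regions, and also 113 of the 499 regions, while Gata3, Cd4, Cd8a, Cd69 and Thy1 held 0 gained ones. The 3 widest gained regions were all in Bcl11b introns (528, 358 and 323 bp). The 3 widest lost regions were upstream of Cd3d (404 bp, in part an exon of Cd3g), in an exon of Cd69 (403 bp) and in an intron of Bcl11b (357 bp). The widest gained region, 18580 bp into Bcl11b with 435 and 528 peak bases in the HDAC7-deficient libraries, and the Bcl11b lost region, 29202 bp into the gene with 357 and 183 peak bases in the wild-type libraries, are shown as the widest of each kind that touch no exon, again on the plus strand of GRCm38 with CpGs in capitals.
Bcl11b gained, chr12:107984872-107985171: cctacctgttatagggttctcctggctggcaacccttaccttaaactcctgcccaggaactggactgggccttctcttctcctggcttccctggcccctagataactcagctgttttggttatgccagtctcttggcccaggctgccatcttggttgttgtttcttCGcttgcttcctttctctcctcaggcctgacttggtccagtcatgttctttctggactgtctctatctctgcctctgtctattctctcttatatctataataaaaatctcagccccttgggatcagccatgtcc
Bcl11b lost, chr12:107974250-107974549: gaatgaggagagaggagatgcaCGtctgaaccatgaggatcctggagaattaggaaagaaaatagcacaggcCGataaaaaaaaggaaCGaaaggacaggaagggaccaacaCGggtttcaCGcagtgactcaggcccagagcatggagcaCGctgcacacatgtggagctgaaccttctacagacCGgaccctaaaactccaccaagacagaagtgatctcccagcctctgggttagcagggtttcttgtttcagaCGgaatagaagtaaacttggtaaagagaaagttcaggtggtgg
The gained sequence held 1 CpG and the lost sequence 8. The gained sequence held 1 GATA match, and the letters of the 3 motifs were not in the lost one.

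Other genes of the T-cell lineage and genes of neighbouring lineages were measured in the same way. The median coverage of the 10 genes was 10.8%, that of 34 other T-lineage genes 12.8%, that of 18 myeloid genes 12.6%, that of 24 B-lineage genes 15.3%, and that of all protein-coding genes 9.89%. By rank among genes of like length the medians were 60.1 for the 10 genes, 80.0 for the other T-lineage, 71.9 for the myeloid and 95.4 for the B-lineage genes. Of the B-lineage genes 16 of 24 were at or above the 90th percentile, of the other T-lineage genes 12 of 34, and of the 10 genes 2. These lists share a few genes, were chosen with earlier results of these data known, and were not tested against each other.

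**Figure D5:**
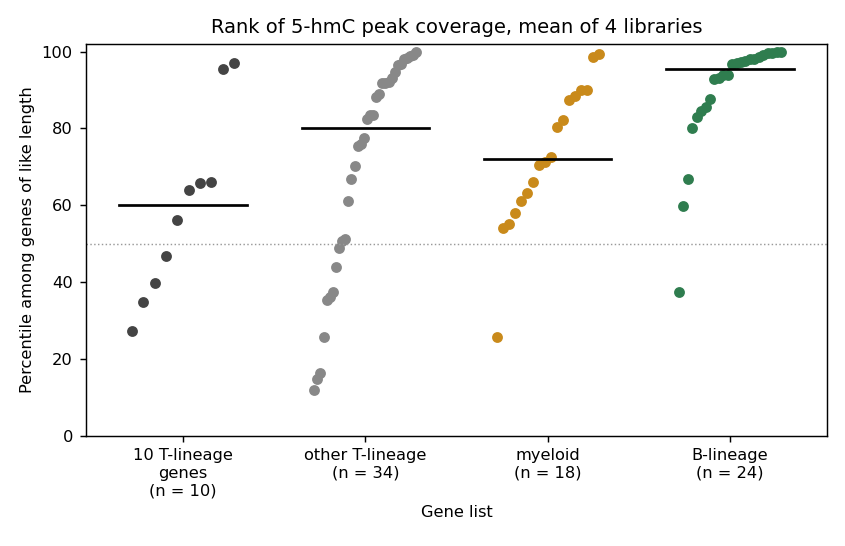
Percentile of mean 5-hmC peak coverage over 4 libraries among protein-coding genes of like length (vertical axis), 1 point per gene, for 4 gene lists (horizontal axis), with a line at each median. The medians are 60.1, 80.0, 71.9 and 95.4 from left to right, and the dotted line marks the 50th percentile.

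Genes from the ends of each list show its range. Among B-lineage genes, coverage was high at Igll1, of the surrogate light chain (25.04% ± 4.78), and lowest at Il7r (10.7% ± 0.417) and Btk (9.06% ± 2.91). Among other T-lineage genes, Zap70, a kinase of T-cell receptor signalling (20.2% ± 2.31), and the Notch target Dtx1 (19.1% ± 3.81) were highest, and the pre-T-cell receptor gene Ptcra (7.92% ± 2.17) and Satb1 (7.59% ± 0.577) lowest. Among myeloid genes the range ran from S100a9 (24.2% ± 2.25) and Cd14 (16.6% ± 5.56) down to Prtn3 (10.5% ± 2.35) and Lyz2 (7.41% ± 1.74). Tcf7 and Cd4 lay above the median of the B-lineage list.

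The genotypes did not overlap in coverage for 13 of the 34 other T-lineage genes, 5 higher and 8 lower in HDAC7-deficient libraries. In the B-lineage list 5 were higher and 4 lower, and in the myeloid list 0 and 4, beside 9.96% of all protein-coding genes higher and 16.9% lower. By peak count the numbers were 4 higher and 6 lower for the other T-lineage genes, 2 and 1 for the B-lineage genes, and 1 and 2 for the myeloid genes, beside 11.9% of all protein-coding genes higher and 10.8% lower. Dtx1 was among those higher by both measures, with 36 and 46 peaks in the wild-type libraries, against 50 and 55 in the HDAC7-deficient ones, and Cd3g, next to Cd3d, was lower in coverage. In the upstream 4 kb, peaks covered 19.8% ± 0.396 of the bases in the B-lineage genes and 16.9% ± 1.95 in the myeloid genes. The values were 13.5% ± 1.16 in the other T-lineage genes and 10.4% ± 1.62 in the 10 T-lineage genes (SD over 4 libraries). These differences were not tested.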

How the data were processed

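hMeDIP-seq was analysed for 4 libraries, 2 wild-type and 2 HDAC7-deficient, grouped by their labels. The 4 input samples were not analysed here. The authors trimmed reads (Trim Galore 0.4.2, Cutadapt 1.6), mapped them (bwa in the methods, Bowtie2 in the submitters' processing notes), removed duplicates and called peaks in each library with MACS2 bdgpeakcall. Peaks meeting input peaks were removed, and whether before deposit is not stated. The deposited values are peak starts and ends (unit: base positions), with no height or count, so depth is unknown and a peak near the calling height may be lost by chance in 1 library.

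Peaks overlapping by at least 1 bp were counted over GENCODE M21 genes (GRCm38) in Python 3.11.15 (pandas 2.3.3, NumPy 2.4.6) and checked against direct counts on 500 simulated windows. Differences were tested by exact permutation over the 6 splits of 4 libraries and with limma 3.58.1 in R 4.3.3 (pseudocount 1, Benjamini-Hochberg over all genes). The design had assumed that the Cd3d and Cd3e windows overlap, which they do not. Named were all 10 genes, the 2 highest and 2 lowest of each list, protein-coding genes overlapping a window with some noncoding ones, and the widest regions. One gene that this rule names is not reported here. The genes and lists were chosen with earlier results of these data known.

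Alternatives covered the window, peak width, joining, scaling, filters and each library left out. Limma-trend, its replicate block, its fit to coverage, and RefSeq starts were added after the data were seen. Figures were drawn with matplotlib 3.10.9.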

Additional observations from a re-analysis of the deposited data

How the results depend on the processing

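The number of genes whose genotypes did not overlap depended on the window. By peak count, lower genes numbered 2 with 5 kb on each side, 1 with 2 kb or 10 kb and 0 over the gene body. In the same order, 10.8%, 10.6%, 10.7% and 9.85% of all genes were lower. Higher genes numbered 1 with 10 kb (beside 12.7% of all genes) or with peaks within 100 bp joined (beside 9.75%). By coverage, lower genes numbered 2 with 2 kb (beside 17.1% of all genes) or the gene body alone (beside 15.9%). Lower genes numbered 3 with 10 kb (beside 17.5%) or with joined peaks (beside 16.4%), and higher genes 1 with 10 kb (beside 9.21%). With peaks at least 200 bp wide, 6 were lower by coverage (beside 15.3% of all genes) and 3 by count (beside 12.6%). Leaving out each library gave 0 to 3 higher and 2 to 6 lower genes by count and 1 to 2 higher and 5 to 6 lower by coverage, where 1 library against 2 separates more easily by construction: over all genes 24.0% to 33.2% were then higher and 20.5% to 33.3% lower by count, and 18.0% to 34.2% and 27.0% to 45.4% by coverage. Gained regions numbered 6 (2.87%, beside 3.88% of all regions) and lost ones 15 (7.18%, beside 3.93%) with peaks at least 200 bp wide, and lost regions 23 (4.62%, beside 2.99%) with an overlap of at least 50% of the region. With 3 libraries, which the same construction raises, they ranged from 27 to 89 (6.34% to 19.96%, beside 7.27% to 18.8%) and from 25 to 99 (5.61% to 23.2%, beside 5.99% to 22.4%). The percentile of Notch1 moved from 34.8 to 71.1, and that of Cd8a from 27.2 to 51.8, when peaks per 10 kb replaced coverage. Limma called 0 genes under every alternative with all 4 libraries. All of these but the limma-trend ones used the first fit, which recovered none of the planted changes, so their 0 calls do not show stability. The ratio of summed peaks stayed between 0.864 and 1.10 with each library left out.

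Replicate numbers were not shown to pair the libraries (correlation of same-numbered deviations over 21451 genes 0.0786, 2 pairs). With the replicate block limma called 0 genes, 953 had an unadjusted p under 0.05, and 1 of the 10 genes was among them (Thy1, log2 change −0.79 ± 0.29, unadjusted p = 0.0394 by limma). With the block in limma-trend 0 genes were called and 1025 had an unadjusted p under 0.05, with Thy1 and Tcf7 among them. Without heights, a peak present and one just under the calling height cannot be told apart, and 2 libraries per genotype cannot give an exact p under 0.33.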
